A study of Mus musculus with 6 samples.

Results

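The genes described are a set of 32 that run or mark the cell division cycle, from the cyclins of G1 through the licensing and copying of DNA to mitosis. They were taken by name, and every probe set whose annotation gave one of the names and no other was used. Of the 32, 31 were matched to 76 probe sets among the 45037 non-control probe sets of the array, which name 18193 genes in all. Ccnb1 was not matched and was not analysed here. Where a gene had several probe sets it is given by the brightest, the one with the highest mean log2 signal over the arrays, and 22 of the 31 had more than 1.

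A cell that enters the cycle first makes D-type cyclins, which release E2F transcription factors from the retinoblastoma proteins, and E2F then turns on the genes for cyclin E, for the licensing of replication origins and for DNA synthesis. Genes of G2 and mitosis are turned on later, through FOXM1 and the complexes that bind the CHR element and CCAAT boxes of their promoters. Most hepatocytes of an adult liver rest outside the cycle, and they can re-enter it after injury or loss of tissue, while postnatal growth of the liver still involves division.

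Whole-liver RNA was measured in 6 mouse samples, 3 of wild-type B6 (WT 1 to 3) and 3 with a LIGHT transgene (LIGHT Tg 1 to 3), with 1 Affymetrix array each. The mice were 4 to 8 weeks old and had eaten a high-fat diet, TD88137, for 2 weeks, so no group was on another diet. Tnfsf14 is the gene of LIGHT, a cytokine of the TNF family. The titles and source names give the genotypes, although the descriptions call all 6 samples wild-type; the labels name neither the strain of the LIGHT Tg mice nor the promoter that drives the transgene, and a strain effect and a transgene effect cannot be told apart. No label says that each array is a separate animal, and the p-values then reflect only how far these samples spread, which may be technical.

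The arrays are on a common scale, with median MAS5 signals between 175.1 and 183.1. The hepatocyte genes Alb, Apoa1 and Ttr lay at or above the 99.8th percentile on average. Tnfsf14 had signals of 19.3 to 55.7 in LIGHT Tg and 7.43 to 11.8 in WT at its brighter probe set (log2 difference 1.80 ± 0.594, SE, n = 3 per group; limma adjusted p = 0.423), and its other probe set had -0.55; whether the probes lie in the transgene is not given. The arrays titled 78 (WT 1) and 77 (LIGHT Tg 1), called the pair here, differ from the 4 titled 30, 31, 34 and 35, called the others. Xist, which coats the inactive X chromosome, had signals of 444.0 and 406.6 in the pair against 7993 to 9714 in the others. The Y-linked gene Eif2s3y had 1037 and 1272 in the pair and 2.1 to 2.82 in the others at its probe set with the widest range. The sets therefore differ in sex-linked signals of both kinds, and sex and any other difference between the sets cannot be told apart. As each genotype has 1 array of the pair, differences are also given within each set and with the set as a block.

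In these whole livers 19 of 31 had a mean at or above the filter used for testing, a mean signal of 167.4, which is 61.3% against 63.6% of all genes. Of the 16 genes of G1 and S phase, leaving aside the inhibitors Cdkn1a and Gmnn, 12 passed the filter, and of the 13 measured genes of G2 and mitosis 5 did. Values of the other 12 come from the same fit over all non-control probe sets and are marked as below the filter. In bulk tissue fewer dividing cells and less RNA per dividing cell cannot be told apart.

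**Figure D1:**
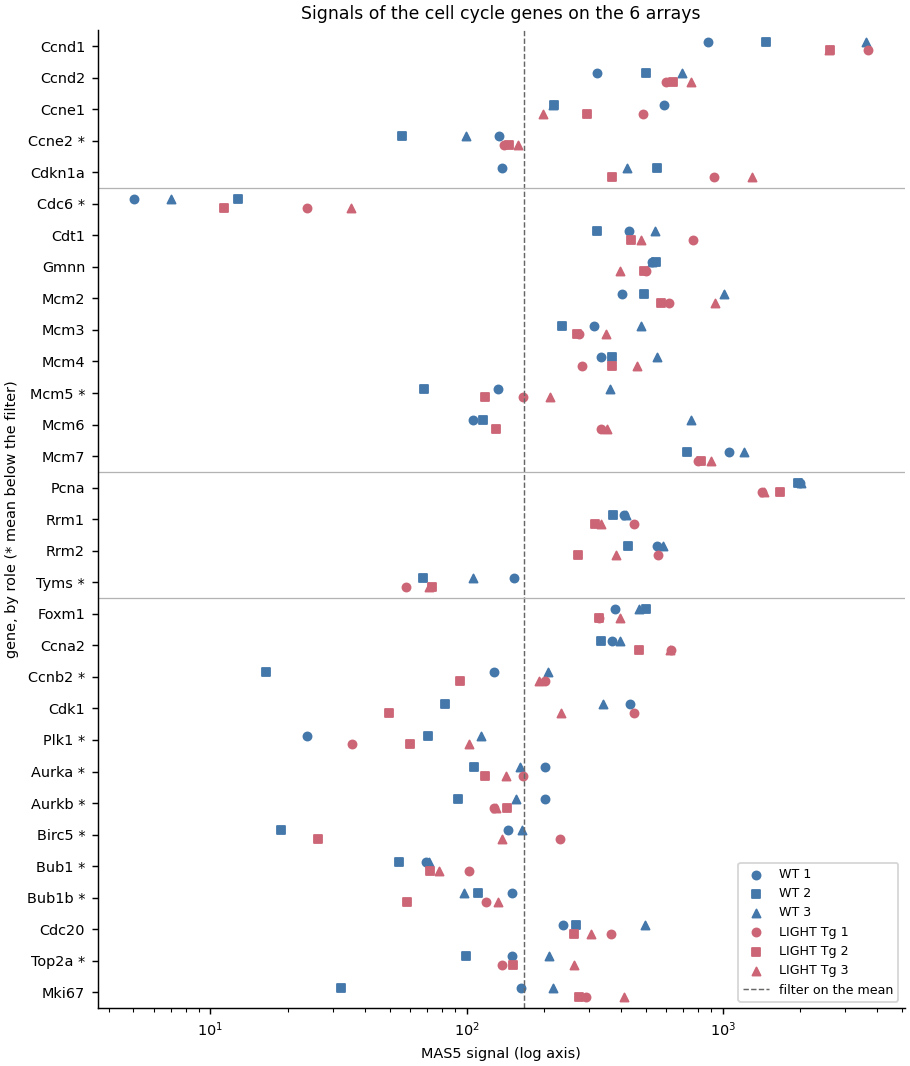
MAS5 signal (log axis) of each measured cell cycle gene on the 6 arrays, with WT in blue and LIGHT Tg in red, ordered by role; asterisks mark genes whose mean is below the filter (dashed line, 167.4). Pcna and Ccnd1 are the brightest, Cdc6 is the dimmest, and the colours are mixed in most rows.

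No cell cycle gene passed the test between genotypes. In limma at 5% FDR, 0 of the 19 tested genes differed, where 1.36% of all tested genes did (157 of 11563; 0.839% higher and 0.519% lower). None of the 37 tested probe sets of these genes differed either, against 1.17% of all tested probe sets. An unadjusted p below 0.05 was reached by 2 of the 19, Ccna2 and Pcna, where 11.9% of all tested genes reached it. With the title-number set as a block the count was again 0, against 7.15% of all tested genes (3.63% higher and 3.52% lower), and it was 0 in the arrays titled 30 to 35 alone, against 4.65%. The smallest adjusted p was 0.255, for Ccna2. Over all 31 genes 17 differences were positive and 14 negative, with a median of 0.07 on the log2 scale, where all genes had 0.00. Among tested cell cycle genes the standard errors ranged from 0.141 for Pcna to 0.918 for Cdk1, with a median of 0.296. The smallest difference called in any gene was 0.715. That value is not a detection limit, as the replication gene Rpa1, with -0.78 ± 0.181, was not called.

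In 6 of the 31 genes, 19.4%, the 3 LIGHT Tg signals lay wholly to 1 side of the 3 WT signals, close to the 15.9% seen among all genes. Above WT were Ccne2, Ccna2, Bub1 and Mki67, where 7.96% of all genes lay above, and below WT were Pcna and Gmnn, where 7.94% lay below. These 6 are described with their roles.

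**Figure D2:**
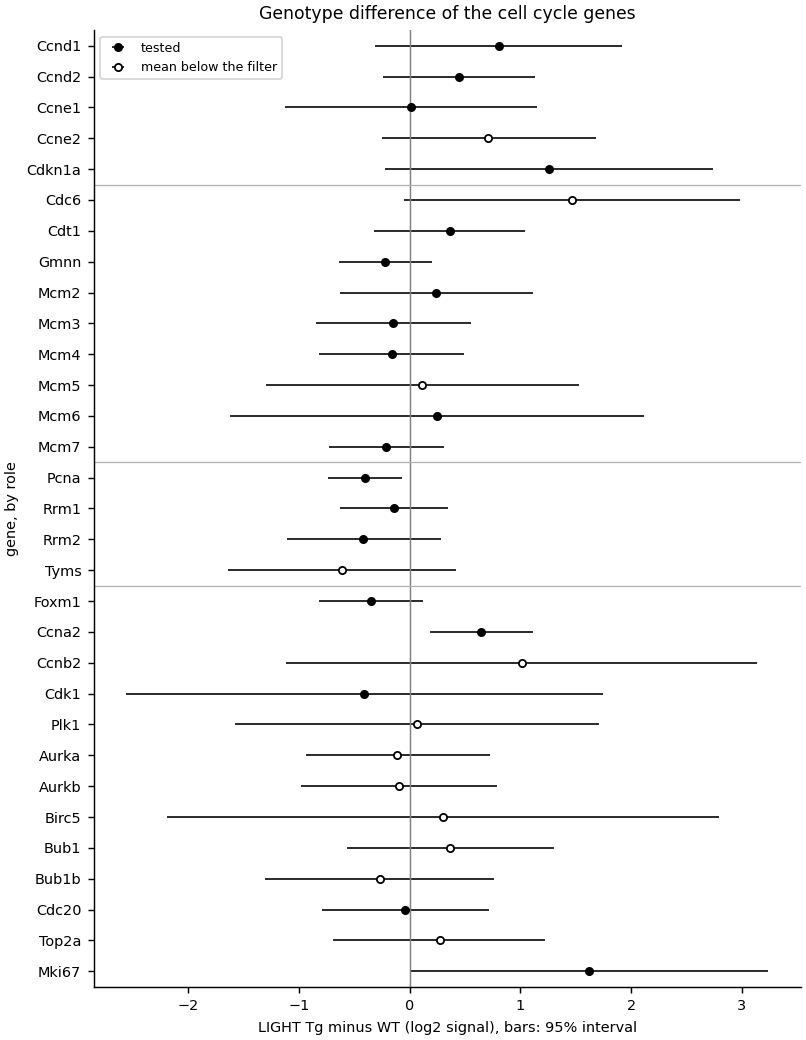
Difference in log2 signal, LIGHT Tg minus WT, for each gene with its moderated 95% interval (limma, n = 3 per group); filled points were tested and open points lie below the filter. The intervals of Pcna (-0.74 to -0.07) and Ccna2 (0.18 to 1.11) leave out 0, before any adjustment for the number of genes tested.

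At their brightest probe sets the G1 cyclins had differences from 0.01 for Ccne1 to 0.81 for Ccnd1, with wide intervals. Ccnd1 encodes cyclin D1, the partner of CDK4 and CDK6 whose level sets entry into the cycle in hepatocytes. Its signals were 876.6, 1471 and 3600 in WT 1 to 3 and 3677, 2623 and 2587 in LIGHT Tg 1 to 3. WT 3 was as high as the LIGHT Tg arrays and only WT 1 and WT 2 lay below them. The log2 difference was 0.81 ± 0.475 (95% interval -0.31 to 1.92, limma adjusted p = 0.643); the pair gave 2.07 and the others 0.18. Its other probe sets had 1.09 and 1.10, with the same 2 arrays lowest.

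Ccnd2, a D-type cyclin with the same partners, had 323.4, 502.8 and 693.0 in WT and 596.7, 638.4 and 752.1 in LIGHT Tg. WT 3 lay within the LIGHT Tg range, and the log2 difference was 0.45 ± 0.292 (limma adjusted p = 0.695). The 6 other probe sets of this gene lay between -0.37 and 0.65, so they do not agree on a sign.

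The E-type cyclins activate CDK2 at the start of S phase. Ccne1 had 586.4, 219.7 and 217.2 in WT and 487.5, 295.5 and 198.5 in LIGHT Tg, with both arrays of the pair above all the others. The genotype difference was 0.01 ± 0.484 (95% interval -1.13 to 1.15), and the other probe set of Ccne1 had -0.05. Ccne2, below the filter, had 133.5, 55.9 and 99.1 in WT and 139.8, 146.8 and 158.9 in LIGHT Tg. All LIGHT Tg signals lay above the WT signals, by 0.07 in the pair and 1.04 in the others.

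Cdkn1a encodes p21, which binds and restrains cyclin-dependent kinases and is induced by p53. At its brighter probe set the signals were 136.9, 554.0 and 421.5 in WT and 918.6, 367.7 and 1294 in LIGHT Tg. LIGHT Tg 1 and LIGHT Tg 3 were the highest and LIGHT Tg 2 lay within the WT range. The log2 difference was 1.26 ± 0.630 (95% interval -0.22 to 2.74, limma adjusted p = 0.552); the pair gave 2.75 and the others 0.51. Another probe set, below the filter, gave a different picture: 19.7 and 16.5 on WT 1 and LIGHT Tg 1 and 156.9 to 431.0 on the others, with a genotype difference of -0.08. Between the sets this probe set had -3.85 ± 0.492, pair minus others on the log2 scale, in the fit over all probe sets (limma adjusted p = 0.00626), while the brighter probe set had -0.70 (adjusted p = 0.415).

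Origin licensing loads the MCM helicase onto DNA before S phase, with CDC6 and CDT1 as the loaders and geminin, from Gmnn, as the inhibitor of CDT1. None of the 7 licensing genes tested passed. Cdt1 had 430.3, 323.5 and 541.3 in WT and 761.5, 436.8 and 479.3 in LIGHT Tg, overlapping groups with a difference of 0.36 ± 0.291. Gmnn had 526.1, 549.3 and 528.3 in WT and 499.2, 490.4 and 395.5 in LIGHT Tg. All LIGHT Tg signals lay below, yet the difference was -0.22 ± 0.179 (limma adjusted p = 0.778). Cdc6 ranked low, at percentile 6.35 of the array, with 5.05 to 12.8 in WT and 11.3 to 35.5 in LIGHT Tg. That is a log2 difference of 1.47 ± 0.649 at signals so low that an offset before log2 left 0.40.

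The 6 subunit genes of the helicase, Mcm2 to Mcm7, shared their highest array at their brightest probe sets, and none of the 5 tested passed between the genotypes. Mcm6 had 105.6, 115.6 and 753.2 in WT and 334.4, 130.6 and 354.1 in LIGHT Tg. WT 3 was the highest of the 6 arrays, 7.14-fold above WT 1, the lowest. Mcm5, below the filter, had 132.5, 68.1 and 361.8 in WT and 166.4, 117.9 and 211.1 in LIGHT Tg, again highest on WT 3. Mcm2 had 402.5, 491.0 and 1006 in WT and 613.9, 574.0 and 930.0 in LIGHT Tg, and there LIGHT Tg 3 came near WT 3. Mcm3 ranged from 235.2 to 477.3, Mcm4 from 281.6 to 551.1 and Mcm7 from 721.9 to 1207.

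At the brightest probe set all 6 of these genes were highest on WT 3, which was the highest array for 12.1% of all genes. The array was singled out after the values were seen, so this share is a description and not a test. Over all 19 probe sets of these genes 10 were highest there, and 8 of the 11 tested. The other tested ones were 1 of Mcm2, highest on LIGHT Tg 1, and 2 of Mcm7, highest on WT 1 and LIGHT Tg 3. Averaged over the 6, WT 3 stood 0.86 above the mean of the arrays on the log2 scale, LIGHT Tg 3 stood 0.35 above, and WT 2 was lowest at -0.55. Genotype differences ran from -0.21 ± 0.223 for Mcm7 to 0.25 ± 0.795 for Mcm6, and their mean was 0.01. The mean log2 signal of the 10 measured myeloid precursor and neutrophil markers was also highest on WT 3, at 8.95. It was 7.84 and 8.45 in the other WT arrays and 7.04 to 8.84 in LIGHT Tg, with LIGHT Tg 2 the lowest. No other cell type list had its highest mean on WT 3. This list is set beside the MCM genes after the values were seen. The single markers were split: Mpo, Elane, Ngp, Camp and Ltf were highest on WT 3. Prtn3 and Ctsg were highest on WT 1, and S100a8, S100a9 and Mmp8 on LIGHT Tg 1. On LIGHT Tg 1 the marker mean was 8.84 and the mean deviation of the MCM genes was -0.03. Of the 10, 8 were above the filter, and Ctsg and Camp were below it. Their part in the MCM values was not tested.

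Promoters of helicase genes are shown next, only from genes where the E2F motif was found. RefSeq sequences of the mouse assembly GRCm38.p6 before the gene start were at hand for 23 of the 31 measured genes, and the 250 bases before each start were searched on both strands. The E2F motif was taken as TTTCCCGC, TTTCGCGC, TTTGCCGC or TTTGGCGC, and overlapping matches were counted separately. A gene was counted if any of its promoters held the motif. The motif was present for 4 of 12 G1 and S genes, Cdc6, Mcm5, Mcm6 and Mcm7, and for 1 of 10 G2 and mitosis genes. Over all promoters searched, counted by distinct sequence and not by gene, 1.87% of 32536 held it, so the units are unlike. Mcm2 and Mcm3 were also searched and had no match to these letters, and both were highest on WT 3. Cdc6, a dim gene at percentile 6.35 of the array, had a match and was highest on LIGHT Tg 3. Whether the motif has a part in these signals was not tested. The Mcm5 stretch below runs from base 180 before the start to base 42, the last base before another transcript of the gene begins. That of Mcm6 runs from base 180 to base 1. Capitals mark the motif on either strand, a longer run where matches overlap. Both genes were chosen after their values were seen.
Mcm5, chr8:75109329-75109467, plus strand: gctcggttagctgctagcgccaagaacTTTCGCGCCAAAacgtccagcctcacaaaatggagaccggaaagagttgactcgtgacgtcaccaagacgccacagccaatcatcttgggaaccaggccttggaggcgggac
Mcm6, chr1:128359706-128359885, minus strand: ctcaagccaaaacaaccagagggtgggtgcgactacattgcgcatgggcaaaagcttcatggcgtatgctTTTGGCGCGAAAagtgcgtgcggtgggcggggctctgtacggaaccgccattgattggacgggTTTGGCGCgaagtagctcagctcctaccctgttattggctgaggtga

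At their brightest probe sets all 4 genes of DNA synthesis had lower means in LIGHT Tg, and none passed the test. Pcna, the sliding clamp of the replicative polymerases, had 2004, 1965 and 2021 in WT and 1419, 1668 and 1449 in LIGHT Tg. The WT arrays lay close together and every LIGHT Tg array lay below them. The difference was -0.40 ± 0.141 (unadjusted p = 0.0233, limma adjusted p = 0.331, and 0.0847 with the block), and it was alike in both sets, at -0.50 in the pair and -0.36 in the others.

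Rrm1 and Rrm2 encode the large and the small subunit of ribonucleotide reductase, which makes deoxyribonucleotides. Rrm2 had 553.0, 426.3 and 583.4 in WT and 559.9, 270.9 and 382.4 in LIGHT Tg, so that LIGHT Tg 1 lay among the WT arrays. The difference was -0.42 ± 0.296, and its other probe sets had -0.21 and 0.32. Rrm1 had 372.1 to 416.5 in WT and 316.8 to 450.1 in LIGHT Tg, a difference of -0.14 ± 0.209. Tyms, the thymidylate synthase gene, was below the filter, with 67.4 to 152.3 in WT and 58.0 to 73.4 in LIGHT Tg; its dimmer probe sets had differences of 0.00 to 1.32, against -0.61 at the brightest.

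For 9 of the 13 genes of G2 and mitosis the genotype difference was smaller than the larger of the 2 within-group SDs, as it was for 73.6% of all genes. Ccna2, Mki67, Foxm1 and Bub1 were the exceptions. Ccna2 encodes cyclin A2, which acts with CDK2 in S phase and with CDK1 in G2. Its signals were 367.9, 333.4 and 395.0 in WT and 626.0, 470.1 and 623.2 in LIGHT Tg. Each LIGHT Tg array lay above each WT array, a difference of 0.64 ± 0.198 (95% interval 0.18 to 1.11, unadjusted p = 0.0137, limma adjusted p = 0.255, and 0.0719 with the block). The pair gave 0.77 and the others 0.58, and the second probe set had 0.76 with LIGHT Tg 2 inside the WT range.

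Mki67, the gene of the Ki-67 protein that coats mitotic chromosomes and marks cycling cells, had 163.3, 32.2 and 217.4 in WT and 291.7, 274.4 and 411.4 in LIGHT Tg. All LIGHT Tg signals were above the WT signals, and WT 2 was far below the rest. The difference was 1.62 ± 0.690 (3.07-fold, 95% interval -0.00 to 3.24, limma adjusted p = 0.455, and 0.211 with the block); the pair gave 0.84 and the others 2.01. The gene had a single probe set.

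The cyclin-dependent kinase Cdk1, which drives entry into mitosis, did not follow Mki67. It had 434.6, 82.6 and 341.1 in WT and 449.3, 49.8 and 233.9 in LIGHT Tg. The lowest arrays were WT 2 and LIGHT Tg 2, and the difference was -0.41 ± 0.918 (95% interval -2.56 to 1.75). Birc5, which encodes survivin of the chromosomal passenger complex and lay below the filter, had 144.8, 18.8 and 164.8 in WT and 231.1, 26.3 and 137.3 in LIGHT Tg. Ccnb2, a cyclin partner of CDK1, also below the filter, had 128.0, 16.5 and 208.1 in WT and 201.7, 93.8 and 191.2 in LIGHT Tg. All 3 genes shared WT 2 and LIGHT Tg 2 as their lowest arrays. With Aurka they make 4 of the 13 genes of G2 and mitosis with this order. It was seen in 2 of the 16 of G1 and S and in 7.44% of all genes. The order was picked from these genes after their values were seen. The count is therefore a description, not a test.

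Promoters of Cdk1 and Ccnb2 are shown because both genes had this array pattern, and were chosen after their values were seen. Capitals mark the CCAAT box, CCAAT on either strand. Counted by gene as above, the box was present for 9 of 10 G2 and mitosis genes and 8 of 12 G1 and S genes. It was in 33.8% of all distinct promoter sequences searched. The CHR element, taken as TTTGAA or TTCGAA on either strand, was found for 6 of 10 and 2 of 12 genes. It was in 17.0% of all distinct promoter sequences searched.
Cdk1, chr10:69352913-69353092, minus strand: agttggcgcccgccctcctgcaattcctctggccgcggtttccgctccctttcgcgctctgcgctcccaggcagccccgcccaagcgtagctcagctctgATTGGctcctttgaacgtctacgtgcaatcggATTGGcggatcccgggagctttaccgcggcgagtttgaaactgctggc
Ccnb2, chr9:70421555-70421734, minus strand: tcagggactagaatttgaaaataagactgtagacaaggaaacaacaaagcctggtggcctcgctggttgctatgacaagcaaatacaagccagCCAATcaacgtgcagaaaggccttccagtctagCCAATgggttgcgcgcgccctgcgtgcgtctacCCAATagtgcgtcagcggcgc

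At their brightest probe sets the mitotic regulators Foxm1 and Cdc20 did not pass the test. Foxm1, the transcription factor of the mitotic genes, had 377.5, 500.8 and 468.2 in WT and 329.6, 327.9 and 395.1 in LIGHT Tg. The groups overlapped only where LIGHT Tg 3 passed WT 1, and the difference was -0.35 ± 0.202 (limma adjusted p = 0.635). Its dimmer probe sets, below the filter, ran from -1.02 to 2.64 and do not agree on a sign. Cdc20, an activator of the anaphase-promoting complex, had 238.0, 266.8 and 497.5 in WT and 366.1, 262.7 and 304.2 in LIGHT Tg, a difference of -0.04 ± 0.321 with WT 3 the highest. Its other tested probe set had 0.65 ± 0.519 with LIGHT Tg 1 the highest, so the probe sets do not agree on a sign.

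The remaining 6 genes of this class were below the filter. Top2a, the topoisomerase that untangles sister chromatids, ranged from 99.7 to 209.0 in WT and from 137.0 to 262.0 in LIGHT Tg. The mitotic kinases Plk1, Aurka and Aurkb had differences of 0.07, -0.11 and -0.10, each with overlapping groups. Of the spindle checkpoint genes, Bub1 had 54.3 to 71.3 in WT and 72.1 to 102.0 in LIGHT Tg, a gap of less than 1 signal unit between the groups, and Bub1b had -0.27 with overlapping groups.

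**Figure D3:**
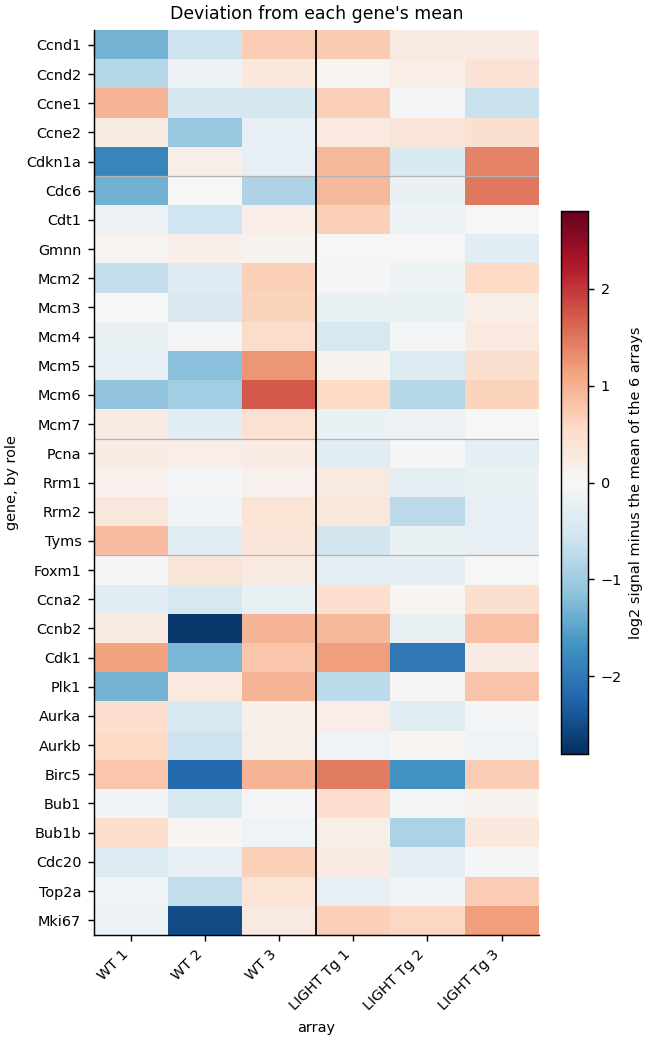
Log2 signal on each array minus the gene's mean over the 6 arrays, with genes in rows by role and arrays in columns, WT left of the line. The 6 MCM genes, each at its brightest probe set, are highest on WT 3, and Cdk1, Ccnb2 and Birc5 are lowest on WT 2 and LIGHT Tg 2.

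Taken by phase, neither G1 and S genes nor G2 and mitosis genes separated the genotypes. The mean log2 signal of the 16 G1 and S genes was 8.16, 7.95 and 8.71 in WT 1 to 3 and 8.53, 8.19 and 8.54 in LIGHT Tg 1 to 3. That of the 13 G2 and mitosis genes was 7.36, 6.44 and 7.66 in WT and 7.61, 6.89 and 7.66 in LIGHT Tg. In both phases WT 2 was the lowest array and LIGHT Tg 2 the lowest of its group. The difference of group means was 0.14 for G1 and S and 0.23 for G2 and mitosis, against SDs between WT arrays of 0.39 and 0.64. With the genes below the filter left out, a comparison chosen after seeing the data, these differences were 0.05 and 0.29.

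Median differences over genes were 0.06 for G1 and S and 0.07 for G2 and mitosis. For G1 and S the pair had 0.10 and the others -0.06, and for G2 and mitosis 0.55 and 0.11. Single arrays decide these signs: without WT 2 the medians were -0.21 and -0.16, and without WT 3 they were 0.33 and 0.43. WT 2 was the lowest array for 8 of the 13 G2 and mitosis genes, where it was lowest for 16.5% of all genes. This array was also picked after the values were seen.

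**Figure D4:**
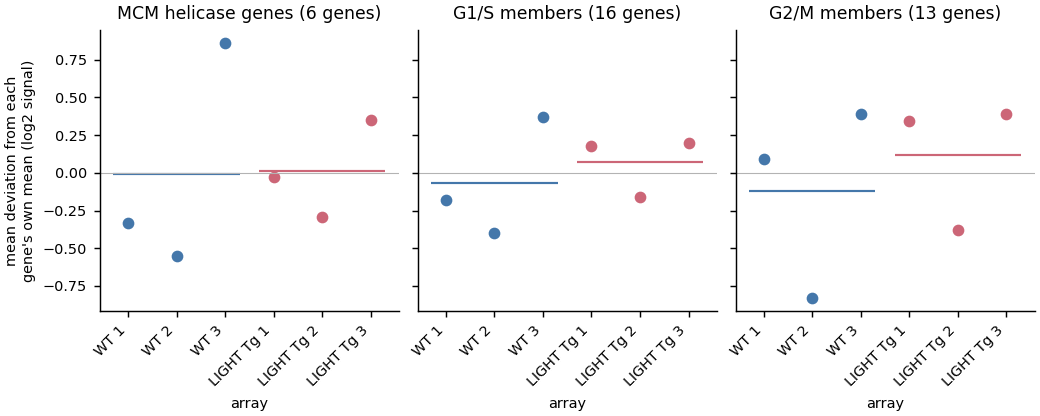
Mean deviation of each array from the genes' own means (log2 signal) for the 6 MCM genes, the 16 G1 and S genes and the 13 measured G2 and mitosis genes; horizontal lines are the means of 3 arrays. WT 3 stands highest for the MCM genes at 0.86, WT 2 lowest for G2 and mitosis at -0.83, and the group means differ by 0.01, 0.14 and 0.23.

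The median spread between replicates was larger for these genes than for all genes. Among tested genes the median within-group SD was 0.408 on the log2 scale for the cell cycle genes and 0.28 for all genes. With the genes below the filter included it was 0.439 and 0.377, a smaller gap. The genes compared were not matched for signal level. Over the 6 arrays, both genotypes together, the highest stood at least 4-fold above the lowest for 5 of the 19 tested genes. That was 26.3%, against 6.11% of all tested genes, and the ratio includes any genotype difference. The 5 genes were Ccnd1, Cdkn1a, Mcm6, Cdk1 and Mki67. For Ccnd1, Cdkn1a and Mki67 the highest array was LIGHT Tg and the lowest was WT. Over all 31 genes the count was 10, or 32.3%, against 21.6% of all genes, and the 4-fold mark was chosen after seeing the data.

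Between the title-number sets 1 of the 19 tested genes differed, where 25.0% of all tested genes did. Ccne1 was higher in the pair by 1.22 ± 0.217 on the log2 scale (limma with genotype in the model, adjusted p = 0.00920), and by 2.45 ± 0.250 at its other probe set. In all 5 of the 37 tested probe sets differed, against 27.4% of all tested probe sets. The other 3 were dimmer probe sets of Ccnd2, at -0.97 and -1.01, and of Rrm2, at 1.49, while the brightest probe sets of these genes did not pass. No cell cycle gene passed the test of a genotype difference that is unlike in the 2 sets, with 7 of 11563 genes passing in all (0.0605%); the largest such estimates were 2.23 for Cdkn1a and 2.12 for Mcm6. The pair holds 1 array per genotype, assumed in this fit to vary like the others.

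Other genes of the cycle gave few differences. Of 26 other G1/S control genes 21 were tested and 0 passed, with 1 unadjusted p below 0.05, 13 positive and 13 negative values and a median of -0.02. E2f7, a repressor of the E2F family, had 268.9, 130.3 and 143.1 in WT and 351.2, 372.9 and 250.3 in LIGHT Tg, a difference of 0.90 ± 0.344 (limma adjusted p = 0.383). E2f1 had 1.02 ± 0.629, E2f6 0.41 ± 0.216 and the kinase gene Cdk6 -0.36 ± 0.269; the brightest, E2f5 and Cdk2, had -0.44 and -0.17.

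Of 40 other DNA replication genes measured 32 were tested and 0 passed, with 4 at an unadjusted p below 0.05, where all 4 had negative differences, and a median of -0.06. Rpa1, the large subunit of the single-stranded DNA binding protein RPA, had 1800, 1465 and 1657 in WT and 1140, 834.1 and 914.1 in LIGHT Tg. Every LIGHT Tg array lay below every WT array, a difference of -0.78 ± 0.181 (limma adjusted p = 0.125) that passed with the block (adjusted p = 0.0131). Slbp, which binds histone mRNA, had -0.42 ± 0.154, the GINS gene Gins1 -1.16 ± 0.465 and the replication initiation gene Mcm10 -0.93 ± 0.386, with non-overlapping groups in each. Of the 40 measured 5 lay wholly below WT and 2 wholly above, where 7.94% and 7.96% of all genes did. The 2 above were Pola1 (0.64) and Chaf1b (0.32), and the other one below was Gins4 (-0.35), named after their values were seen. Fen1, the flap endonuclease gene, was the brightest with -0.16.

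Of 52 other G2 and mitosis genes 31 were tested and 0 passed, with 1 unadjusted p below 0.05 and a median of -0.02. Cks1b, a small subunit of cyclin-dependent kinases, had 1132, 1067 and 1252 in WT and 741.7, 612.7 and 692.9 in LIGHT Tg. These groups lay well apart, with a difference of -0.75 ± 0.165 (limma adjusted p = 0.102, and 0.0213 with the block). Its relative Cks2 had -0.49 ± 0.283 and also passed with the block (adjusted p = 0.0408). The spindle genes Ckap2 and Hmmr had 0.86 ± 0.405 and 0.84 ± 0.429, while Pttg1, the securin gene, and Bub3, the brightest, had -0.26 and -0.12. Between the sets 10 of these 31 were higher in the pair and 0 lower, where 1384 and 1510 of all 11563 tested genes were.

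Of the p53 targets other than Cdkn1a 18 were measured and 15 tested. Plk2, a polo-like kinase gene outside the mitotic set, rose by 2.13 ± 0.238 on the log2 scale (limma adjusted p = 0.0122), the only one of the 15 to pass, where 0.839% of all tested genes passed as higher. Its signals were 377.4, 223.1 and 250.5 in WT and 1353, 1142 and 1154 in LIGHT Tg, with a wide gap between the groups. The difference was 1.84 in the pair and 2.28 in the others. The call was lost without WT 2, WT 3, LIGHT Tg 2 or LIGHT Tg 3 (adjusted p between 0.0584 and 0.085) with differences of 1.98 to 2.18.

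Zmat3, a p53-induced zinc finger gene, had 327.0, 283.4 and 298.7 in WT and 630.0, 405.1 and 540.7 in LIGHT Tg. The groups did not overlap, and the difference of 0.77 ± 0.222 passed with the block only (limma adjusted p = 0.215, and 0.0410 with the block). Btg2, an antiproliferative gene, had 472.6 to 541.1 in WT and 668.7 to 1543 in LIGHT Tg, a difference of 0.90 ± 0.310 (adjusted p = 0.325). With Tnfrsf10b, a dim gene of 10.1 to 19.1 in WT and 30.4 to 58.1 in LIGHT Tg that is named after its values were seen, 4 of the 18 lay wholly above WT and 0 below, where 7.96% and 7.94% of all genes did. The median of the 18 was 0.20, with 13 positive and 5 negative values. Mdm2, which the p53 protein also induces and which is named after its values were seen, had -0.02, and Ddit4, Ei24 and Perp had -0.51, 0.20 and 0.20.

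**Figure D5:**
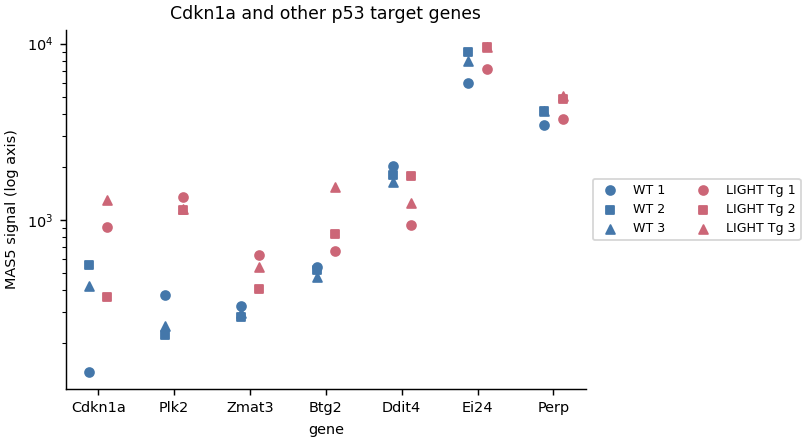
MAS5 signal (log axis) of Cdkn1a and 6 other p53 target genes on the 6 arrays, WT in blue and LIGHT Tg in red. Plk2, Zmat3 and Btg2 show all LIGHT Tg signals above all WT signals, Plk2 with the widest gap, while Cdkn1a overlaps.

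Among 20 liver mitogens and receptors measured 17 were tested and 0 passed, with 3 at an unadjusted p below 0.05 and a median of 0.06. Tgfbr2, a receptor for the growth inhibitor TGF-beta, had 1987, 1145 and 1363 in WT and 2602, 2462 and 2552 in LIGHT Tg, and its difference of 0.80 ± 0.217 passed with the block (limma adjusted p = 0.186, and 0.0287 with the block). Fgfr4 and Ccn2 had -0.70 ± 0.189 and -1.03 ± 0.295, and also passed with the block (adjusted p = 0.0428 and 0.0498). Met, the receptor of hepatocyte growth factor, had -0.38 ± 0.184. Igf1 and Igfbp1, the brightest, had 0.21 and 0.56.

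Markers of other cells that could hold dividing cells were compared by genotype. The mean log2 signal of the 10 B and plasma cell markers was 7.84 to 8.12 in WT and 7.89 to 8.77 in LIGHT Tg. Of these 10, 4 were below the filter, and 1 rose, Ighm, by 3.62. The 12 T and NK cell markers had 6.34 to 6.90 in WT and 6.27 to 7.07 in LIGHT Tg, with 9 below the filter, the CD3 genes among them. For the 9 erythroid markers the values were 7.49 to 8.11 and 7.42 to 7.74. Kupffer cell and macrophage markers had 11.07 to 11.41 and 10.68 to 11.53 over 12 genes, none below the filter. The 11 endothelial markers had 9.95 to 10.02 in WT and 10.20 to 10.48 in LIGHT Tg, ranges that do not overlap, and 1 rose, Lyve1, by 1.24. Their median difference was 0.19, with 8 positive and 3 negative values. Stab2 had 0.75 and passed with the block only (limma adjusted p = 0.125, and 0.0127 with the block). Pecam1 and Cdh5 had 0.19 and 0.12, and Kdr, Tek and Eng had -0.09, -0.03 and -0.11. All of these but Lyve1 were named after their values were seen. Among 6 bile duct markers Prom1 rose by 4.20 and Krt19, Krt7, Sox9 and Cldn7 were below the filter. Stellate cell markers had 9.86 to 9.95 and 9.73 to 10.10 over 12 genes, and hepatocyte markers 14.03 to 14.12 and 13.98 to 14.12 over 7. Of the brightest genes in each list, those that did not pass included Cd8a and Gzma (0.12 and -0.18), Xbp1 (0.25), Tfrc and Alas2 (0.86 and -0.57), S100a8 and Ngp (-0.05 and -0.48), Csf1r and Cd5l (-0.08 and -0.30), Epcam (-0.55), Dcn and Reln (-0.01 and -0.21) and Apoa1 and Ttr (-0.00 and -0.01). Of the brightest endothelial genes Clec4g had 0.36 and Fcgr2b 0.70, the latter passing with the block (limma adjusted p = 0.0243). The part of these cells in the values of the cell cycle genes was not tested.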

How the data were processed

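The authors deposited MAS5 signals, an intensity on a linear scale per probe set, with MAS5 named in the submitters' processing notes. No source used here gives the MAS5 version, its target value or present and absent calls. Before log2, the 106 signals under 1 were raised to 1, and 64 control probe sets were dropped. Genes were named from the array's annotation table, only where a probe set had 1 symbol (34945 probe sets; 932 had several and 9160 had none), and 0 symbols changed against RefSeq names of GRCm38.p6. Probe sets with a mean log2 at or above the median, 7.387, were tested (22519, or 11563 genes by brightest probe set).

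The genotypes were compared in limma 3.58.1 (R 4.3.3; lmFit, eBayes with a trend, two-sided) at 5% FDR, adjusting by Benjamini-Hochberg across all tested probe sets. Differences are LIGHT Tg minus WT with the moderated SE. An exact test of 3 against 3 arrays cannot go below 0.1. Lists were described by counts and medians. The steps were tested on simulated data. Precision is limited by how few arrays there are.

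The genes and lists were chosen with earlier results of these data known. Named were all measured cell cycle genes, in each pathway list up to 4 genes of largest statistic and the 2 brightest, and in cell type lists the 2 brightest and genes that passed; Cks2 was named after its values were seen. Of 161 pathway and 101 marker entries, 5 and 12 were not matched and not analysed here. Gene differences, list counts and medians were recomputed without the filter, with it at percentile 75, with percentile 20 of the signals added before log2, after quantile or median scaling, with eBayes untrended or robust, with array weights, with the title-number block, in the arrays titled 30 to 35, leaving out 1 array at a time and, for medians and for genes with several probe sets, averaging the probe sets; the stricter filter drops dimmer genes. The differences of phase means were recomputed only over tested genes. After seeing the data, phase means over tested genes and counts over every probe set were added. Figures used matplotlib 3.10.9.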

Additional observations from a re-analysis of the deposited data

How the results depend on the processing

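No cell cycle gene passed 5% FDR in limma under any of the alternatives, and the lowest adjusted p of any of them was 0.0562, for Pcna with array weights. The count of all probe sets called, 264, was 148 without the variance trend, 1992 with array weights, 1457 with the title-number block, 956 in the arrays titled 30 to 35 alone, and 43 to 306 with 1 array left out. Array weights, the block and the arrays titled 30 to 35 alone gave 1, 1 and 1 call among the other replication genes, 2, 2 and 1 among the other mitosis genes and 3, 3 and 2 among the mitogens; array weights gave 1 among the other G1/S genes, and array weights and the block 3 and 2 among the p53 targets. With 1 array left out these lists had 0 calls, apart from 0 to 1 for the p53 targets and 0 to 1 for the mitogens. The count between sets was 0 with the stricter filter and 0 to 2 with 1 array left out. Of the tested cell cycle genes, Ccne1 had -0.02, Foxm1 0.25 and Cdc20 0.21 with the mean of all probe sets, and Mcm6 had -0.51 with array weights and -0.46 in the arrays titled 30 to 35, each opposite in sign to its main value. Of the genes below the filter 6 had the opposite sign under some setting other than leaving an array out: Tyms (0.20) and Aurkb (0.23) with the mean of all probe sets, Mcm5 (-0.21) with array weights, Plk1 (-0.20) in the arrays titled 30 to 35, and Birc5 and Top2a near 0. Leaving out 1 array turned the sign for 8 genes below the filter (Mcm5, Ccnb2, Plk1, Aurka, Aurkb, Birc5, Bub1b and Top2a) and for 7 tested genes: Ccne1 (-0.33 to 0.49), Mcm2 (-0.03 to 0.63), Mcm3 (-0.39 to 0.12), Mcm4 (-0.34 to 0.05), Mcm6 (-0.24 to 1.17), Cdk1 (-1.15 to 0.49) and Cdc20 (-0.24 to 0.29). The cause was not tested. The stricter filter left no G2 and mitosis gene, so that median was not run. No paired analysis was possible because the labels give no replicate numbers, the numbers 1 to 3 used here only name the samples, and the title-number block separates 2 sets of arrays without pairing animals. Without detection calls, dim signals cannot be called absent.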
